A study of Mus musculus with 75 samples.

Results

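The 9 genes described here encode the MHC class II antigen presentation pathway and were taken from the count table by their gene symbols: *H2-Aa*, *H2-Ab1*, *H2-Eb1*, *Cd74*, *Ciita*, *H2-DMa*, *H2-DMb1*, *H2-Oa* and *H2-Ob*. All 9 were found among the 55536 genes of the table, each in 1 row, and all 9 passed the filter on low counts that left 16221 genes to be tested. Lung RNA had been sequenced in 75 male C57BL/6JRj mice from the inferior lobe, giving 1 library for each. The drug bleomycin (BLEO), used against tumours, injures the alveolar epithelium when it is instilled into the airways, and the resulting fibrosis is used as a model of idiopathic pulmonary fibrosis (BLEO-IPF mice). The series followed the lung over 6 weeks after a single intratracheal instillation, which was given at 12 to 14 weeks of age.

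The groups were 10 controls (CTRL) and the BLEO-IPF mice, of which 10 were killed at day 7, 12 at each of days 14, 21, 28 and 35, and 7 at day 42. All mice were of the same strain, and the labels give no other genotype. The labels give the treatment of CTRL as saline, whereas the treatment protocol describes the controls as untreated. Only BLEO-IPF mice that had lost between 5% and 17% of body weight on day 6 entered the groups, and no such selection applied to CTRL. The labels give no day for CTRL. Mice of later days were older when killed, so age and time after BLEO cannot be told apart. The authors report deaths of BLEO-IPF mice during the series, so each group holds mice that lived to its day. The lungs had been rinsed to collect lavage fluid before the lobe was taken, so cells that lie loose in the airspaces were partly removed. In RNA from a whole lobe, fewer cells of a type and less RNA per cell cannot be told apart, and neither can more cells and more RNA per cell.

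MHC class II molecules are surface proteins that hold fragments of engulfed proteins for recognition by CD4 T cells. An alpha and a beta chain assemble with the invariant chain in the endoplasmic reticulum, the invariant chain is cut away by proteases in late endosomes, and the last fragment in the groove is exchanged for an antigen peptide with the help of a second, non-classical class II molecule. The genes are controlled together at a shared set of promoter elements. In the lung, dendritic cells, B cells, macrophages and alveolar type 2 cells are known to carry class II.

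The members divide by role. *H2-Aa* and *H2-Ab1* encode the 2 chains of I-A, the classical class II molecule of C57BL/6 mice, and *H2-Eb1* the beta chain of I-E, whose alpha chain is not made in this strain. *Cd74* encodes the invariant chain. *Ciita* encodes the coactivator that switches the class II promoters on. *H2-DMa* and *H2-DMb1* encode H2-M, which catalyses peptide exchange, and *H2-Oa* and *H2-Ob* encode H2-O, which inhibits H2-M and is known mainly from B cells. In GRCm38, 7 of the genes lie within 17:34092340 to 34316674 (the start of *H2-Oa* to the end of *H2-Eb1*) and *Ciita* lies at 16:10480059 to 10528418, while *Cd74* lies on another chromosome. All are protein-coding.

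The stretch before the start is shown for 3 members whose values went different ways, since class II genes are known to share elements there. RefSeq windows on GRCm38.p6 were at hand for 6 of the 9 members, and *Ciita*, *Cd74* and *H2-Ab1* had no entry. Each line gives the 150 bases before the start, 5′ to 3′ on the gene's strand, with the NF-Y box (CCAAT, read as ATTGG on the opposite strand) and the core of the X box (ACNGATG) in capitals. *H2-Aa* is at chr17:34287824-34287973 (minus strand), *H2-Eb1* at chr17:34305717-34305866 (plus strand) and *H2-Ob* at chr17:34238755-34238904 (plus strand).
H2-Aa: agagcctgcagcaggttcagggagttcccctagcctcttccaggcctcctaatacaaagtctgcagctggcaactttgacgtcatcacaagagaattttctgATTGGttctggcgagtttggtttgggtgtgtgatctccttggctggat
H2-Eb1: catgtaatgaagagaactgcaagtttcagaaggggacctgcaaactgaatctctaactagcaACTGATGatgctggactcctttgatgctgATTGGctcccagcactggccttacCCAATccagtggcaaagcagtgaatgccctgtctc
H2-Ob: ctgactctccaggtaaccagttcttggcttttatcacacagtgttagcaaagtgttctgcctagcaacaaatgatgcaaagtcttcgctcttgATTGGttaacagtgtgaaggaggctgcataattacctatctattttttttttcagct
The 3 windows shared an ATTGG whose first base lay at position -48 in *H2-Aa*, -59 in *H2-Eb1* and -57 in *H2-Ob*, where -1 is the last base before the start. *H2-DMb1* held one at -61 and *H2-Oa* one at -43, so that 5 of the 6 members had an ATTGG starting from 65 to 40 bases before the start, against 3.37% of 32851 promoters. The RefSeq starts of *H2-DMb1* and *H2-Oa* lie downstream of the gene starts in the annotation used for the counts, so that this ATTGG lies inside the annotated gene of *H2-DMb1* and just before that of *H2-Oa*, and the count of 5 depends on the start used. In *H2-Eb1* and *H2-DMb1* an ACTGATG preceded it, at -88 and -91, and 0.11% of promoters held an X box core followed by an ATTGG 15 to 40 bases on. Over the whole 250 bases and both strands, 33.8% of promoters held the NF-Y box, 8.31% the X box core and 2.77% both. The position and spacing rules were set after these sequences had been read, and a match of letters is a description, not a shown binding site.

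Total counts per library ranged from 9240291 to 14665247. Lung genes were high in every library (*Sftpc*, surfactant protein C, from 3340 to 18600 CPM, counts scaled to library size). Of 75 libraries, 3 held over 100 counts of *Rag1*, a gene of developing lymphocytes in the thymus. They were CTRL mice 5 and 9 and mouse 7 of day 28. Calls of the members, B cell markers and thymus markers that changed without these libraries are also given without them. The other marker lists are given with all 75 libraries, and the ratios and correlations were not repeated without the 3. The members were sequenced to unequal depth: *Cd74* had 5183 to 32430 counts per mouse and *H2-Oa* 11 to 125, and the values of *H2-Oa* are the least precise.

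Per kilobase of exon (RPKM, TMM-scaled), the members of CTRL lungs ranged from *Cd74* at 657.6 ± 58.9 (SD, n = 10) down to *H2-Oa* at 4.19 ± 0.81. The 3 classical chains lay close together below *Cd74*, at 157 ± 12.7 for *H2-Eb1*, 143.6 ± 13.3 for *H2-Ab1* and 116 ± 9.01 for *H2-Aa*. The chains of H2-M were lower, at 24.9 ± 3.0 for *H2-DMb1* and 14.2 ± 1.2 for *H2-DMa*, followed by *H2-Ob* at 7.65 ± 1.93 and *Ciita* at 4.32 ± 0.678. These levels divide by the union of all annotated exons and would be higher for genes whose main transcript is short. No test was made between genes.

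*H2-Ab1*, the beta chain of I-A, was upregulated on all 6 days after BLEO administration. In CTRL the CPM of *H2-Ab1* ran from 319.5 to 418 with a median of 370.3. The range was 290.6 to 741 on day 7 (median 490.4), 148 to 1117 on day 14 (median 589) and 449 to 791 on day 21 (median 562). It was 417 to 819 on day 28 (median 607), 466.5 to 979.5 on day 35 (median 652) and 514 to 804 on day 42 (median 628). Every mouse of days 21, 35 and 42 and 11 of 12 mice of day 28 lay above every CTRL mouse, whereas day 7 and day 14 overlapped CTRL on both sides. The log2 fold change (log2FC) against CTRL was 0.46 ± 0.17 (SE) on day 7 (adjusted p = 0.0209, edgeR), 0.58 ± 0.16 on day 14 (adjusted p = 0.00154) and 0.89 ± 0.17 on day 35 (adjusted p = 1.99e-05), a fold of 1.85. Ordered by mean CPM, day 35 was highest, followed by days 42, 28, 21, 14 and 7 and CTRL, and of the 6 neighbouring pairs in that order the day 7 and CTRL pair differed. Day 35 exceeded day 7 by 0.42 ± 0.16 (adjusted p = 0.0474).

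*H2-Aa*, *H2-Eb1* and *Cd74* followed the same order of groups, with day 35 highest and CTRL lowest. *Cd74* ran from 955.0 to 1247 CPM in CTRL (median 1097), from 882 to 2124 on day 7 (median 1279), from 435 to 2583 on day 14 (median 1604) and from 1474 to 2056 on day 21 (median 1733). It then ran from 1334 to 2140 on day 28 (median 1717), from 1404 to 2855 on day 35 (median 1821) and from 1536 to 2279 on day 42 (median 1860.0). From day 21 on, all BLEO-IPF mice lay above all CTRL mice. The log2FC of *Cd74* was 0.33 ± 0.16 on day 7 (adjusted p = 0.0745), 0.47 ± 0.15 on day 14 (adjusted p = 0.00537) and 0.82 ± 0.15 on day 35 (adjusted p = 1.83e-05). *H2-Aa* was 441 ± 34.2 CPM in CTRL and 780 ± 151 on day 35 (log2FC 0.82 ± 0.15, adjusted p = 1.9e-05), and *H2-Eb1* was 305 ± 24.7 and 573 ± 135 (log2FC 0.91 ± 0.17, adjusted p = 3.16e-05). Both were upregulated from day 14 on, and on day 7 their log2FC was 0.30 (adjusted p = 0.114) and 0.39 (adjusted p = 0.0636). No neighbouring pair in the order of groups differed for these 3 genes (lowest adjusted p = 0.0636). Day 35 exceeded day 7 in *H2-Aa* by 0.53 (adjusted p = 0.00732), in *H2-Eb1* by 0.52 (adjusted p = 0.0215) and in *Cd74* by 0.49 (adjusted p = 0.0123). *H2-Aa* lost its call on day 14 without mouse 2 of that day (log2FC 0.32, adjusted p = 0.0502), and *H2-Ab1* its call on day 7 without mouse 4 of that day (0.39, adjusted p = 0.0592). *H2-Eb1* and *Cd74*, not called on day 7, gained a call there without single libraries. Without mouse 8 of day 14, whose spread enters the shared fit, their adjusted p were 0.031 and 0.0358. Without mouse 5 of day 7 they were 0.0323 and 0.0375. *H2-Eb1* also gained it without mouse 1 (adjusted p = 0.0475) or mouse 2 of day 14 (adjusted p = 0.0456).

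**Figure D1:**
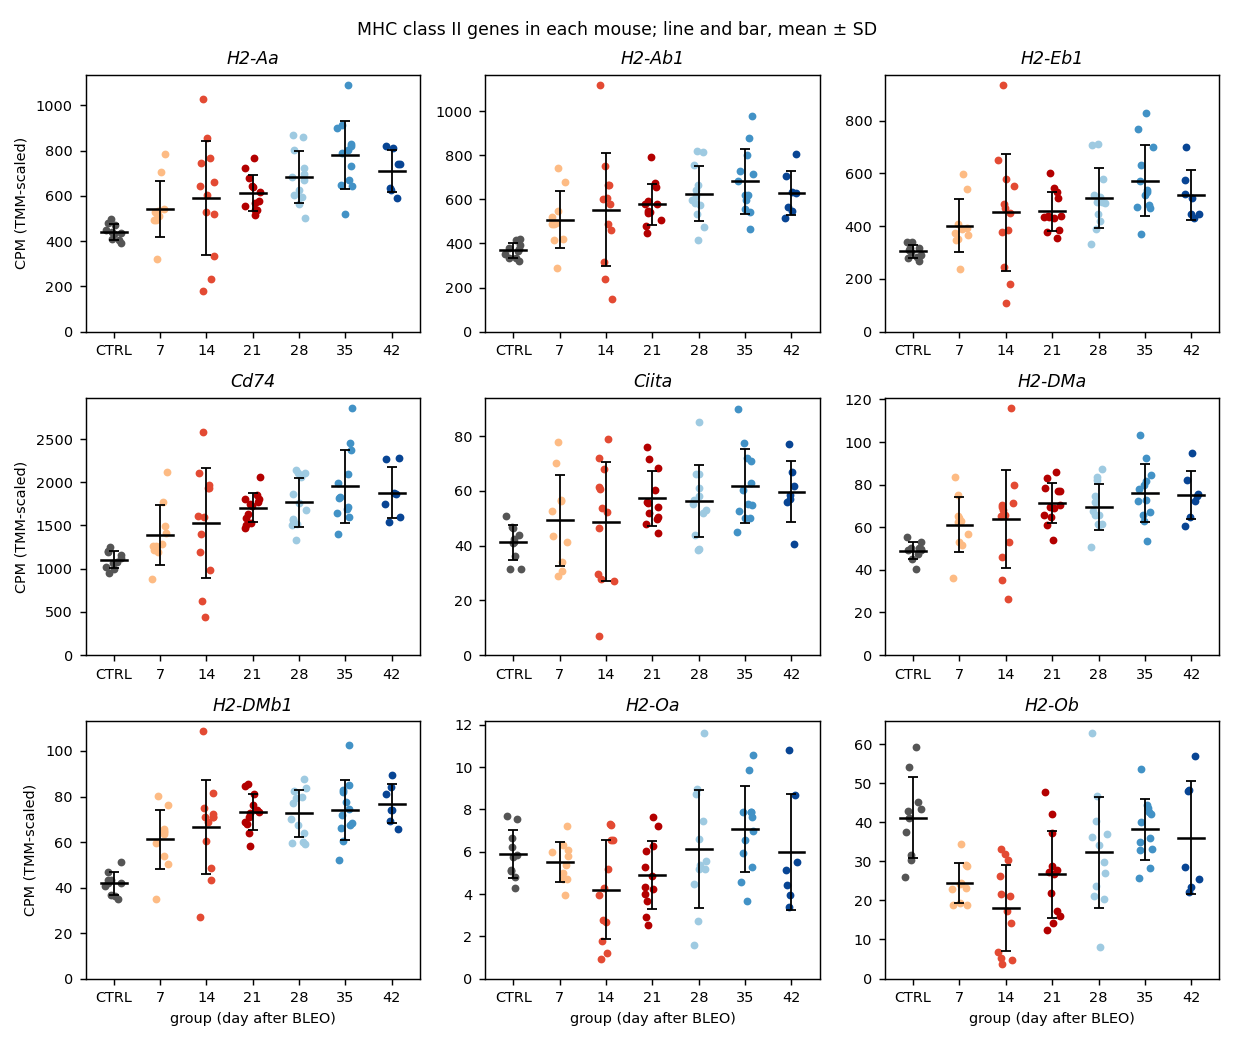
CPM (TMM-scaled, y axis from 0) of each of the 9 genes in each of the 75 mice, by group (CTRL and day after BLEO); points are mice, and the line and bar are the mean ± SD. The classical chains, *Cd74*, *H2-DMa* and *H2-DMb1* sat higher from day 21 to day 42 than in CTRL, *H2-Ab1* ran from 148 to 1117 among the 12 mice of day 14, and *H2-Ob* was lowest on day 14.

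*H2-DMb1* and *H2-DMa*, the chains of the peptide exchange catalyst H2-M, were upregulated on all 6 days, with the day 7 call of *H2-DMa* near the threshold. *H2-DMb1* ran from 34.8 to 51.4 CPM in CTRL (median 42.0), from 34.8 to 80.2 on day 7 (median 63.9), from 27.2 to 109 on day 14 (median 70.8) and from 58.5 to 85.5 on day 21 (median 72.9). On days 28, 35 and 42 the lowest mouse was at 52.03, so that all mice from day 21 on lay above all CTRL mice. The log2FC was 0.55 ± 0.12 on day 7 (adjusted p = 0.000202), 0.81 ± 0.12 on day 21 (adjusted p = 5.51e-08) and 0.88 ± 0.14 on day 42 (adjusted p = 1.04e-06). Its log2FC had the smallest SE of the 9 genes, and day 7 differed from CTRL as a neighbouring pair while no later pair did. *H2-DMa* was 49.1 ± 4.14 CPM in CTRL and between 61.24 ± 13 on day 7 and 76.2 ± 13.5 on day 35, with a log2FC of 0.32 ± 0.13 on day 7 (adjusted p = 0.0423) and 0.63 ± 0.13 on day 35 (adjusted p = 7.71e-05). The day 7 call of *H2-DMa* was lost in 32 of 75 refits that each left out 1 mouse, with the highest adjusted p at 0.109 without mouse 4 of day 7. It was also lost without the 3 libraries with *Rag1* counts (log2FC 0.33, adjusted p = 0.0605), which left 2 members upregulated on day 7, and with upper quartile factors (adjusted p = 0.0501), no filter on low counts (adjusted p = 0.0796) or a minimum of 10 counts in each mouse (adjusted p = 0.0538). *H2-DMb1* has a near-identical neighbour, *H2-DMb2* (18.6 ± 4.2 CPM in CTRL, called on no day, log2FC from -0.40 on day 14 to 0.16 on day 35), and how reads were split between the pair is not given in the sources used here. *H2-DMa* shares 360 exon bases with *Brd2* on the opposite strand, which had 424% as many counts, and counting by strand is not stated.

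*Ciita*, the class II coactivator, was upregulated on days 21, 28 and 35. It ran from 31.5 to 50.8 CPM in CTRL (median 41.9), from 28.9 to 78.0 on day 7 (median 48.1), from 6.97 to 79.0 on day 14 (median 52.9) and from 44.5 to 76.2 on day 21 (median 54.8). It ran from 38.4 to 85.2 on day 28 (median 55.95), from 44.8 to 89.8 on day 35 (median 57.8) and from 40.8 to 77.2 on day 42 (median 58.6). Every group overlapped CTRL, with 9 of 12 mice above all CTRL mice on days 28 and 35. Its log2FC on these days was 0.47, 0.45 and 0.58, each with an SE of 0.185, and the adjusted p were 0.0251, 0.0427 and 0.0118, while days 7, 14 and 42 did not pass, at 0.26, 0.24 and 0.54 with adjusted p of 0.278, 0.25 and 0.0512. These calls lay near the threshold. Leaving out 1 mouse removed the call on day 28 in 16 of 75 refits (adjusted p up to 0.0927 without mouse 4 of day 28), made one on day 42 in 14 of 75 (adjusted p down to 0.0167 without mouse 8 of day 14), removed it on day 21 without CTRL mouse 7 (log2FC 0.43, adjusted p = 0.0523) and made one on day 14 without mouse 8 of that day (0.36, adjusted p = 0.0421). *Ciita* shares 329 exon bases with *Dexi* on the opposite strand, which had 25.3% as many counts.

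*H2-Ob*, the beta chain of the H2-M inhibitor H2-O, went the other way. It was downregulated on days 7, 14 and 21 and did not pass the test from day 28 on. In CTRL it ran from 26.1 to 59.4 CPM (median 42.0). The range was 18.9 to 34.3 on day 7 (median 23.7), 3.61 to 33.2 on day 14 (median 19.2) and 12.5 to 47.7 on day 21 (median 27.1). It then ran from 8.03 to 62.9 on day 28 (median 32.03), from 25.8 to 53.6 on day 35 (median 38.1) and from 22.1 to 56.9 on day 42 (median 28.5). On day 14, 8 of 12 mice lay below every CTRL mouse and none above, and on day 35 a single mouse did. The log2FC was -0.75 ± 0.27 on day 7 (adjusted p = 0.0162), -1.19 ± 0.26 on day 14 (adjusted p = 4.89e-05), a fold of 0.439, and -0.62 ± 0.25 on day 21 (adjusted p = 0.0308). On day 28 it was -0.35 ± 0.25 (adjusted p = 0.267), on day 35 -0.11 ± 0.25 (adjusted p = 0.783) and on day 42 -0.19 ± 0.29 (adjusted p = 0.678), with a 95% interval of the fold from 0.592 to 1.3. Against day 14, *H2-Ob* was higher on day 28 by 0.84 ± 0.25 (adjusted p = 0.00959), on day 35 by 1.08 ± 0.25 (adjusted p = 0.000315) and on day 42 by 1.00 ± 0.28 (adjusted p = 0.00364).

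CTRL mice 5 and 9, with *Rag1* counts of 140 and 188, had the highest *H2-Ob* of their group at 54.1 and 59.4 CPM. Without these and mouse 7 of day 28, the log2FC of *H2-Ob* was -0.61 on day 7 (adjusted p = 0.078), -1.05 on day 14 (adjusted p = 0.000727) and -0.48 on day 21 (adjusted p = 0.134), so that the call of day 14 held and those of days 7 and 21 did not. The day 21 call was also lost without mouse 1 (-0.56, adjusted p = 0.056), mouse 5 (-0.57, adjusted p = 0.0574) or mouse 10 of day 21 (-0.58, adjusted p = 0.052), or without CTRL mouse 5 (-0.58, adjusted p = 0.0541) or CTRL mouse 9 (-0.55, adjusted p = 0.0676).

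*H2-Oa*, the alpha chain of H2-O, was called on no day against CTRL by edgeR or DESeq2, and its unadjusted p was under 0.05 on day 14 alone (0.0474). It ran from 4.29 to 7.71 CPM in CTRL (median 5.78), from 3.96 to 7.20 on day 7 (median 5.60), from 0.924 to 7.29 on day 14 (median 4.12) and from 2.55 to 7.63 on day 21 (median 4.61). From day 28 to day 42 the extremes were 1.61 and 11.6. On day 14, 7 of 12 mice lay below every CTRL mouse, and the log2FC was -0.49 ± 0.24 (adjusted p = 0.0729). Leaving out mouse 2, 6, 7 or 9 of day 14 made that a call, with a log2FC of -0.59, -0.56, -0.58 and -0.56 and adjusted p of 0.0332, 0.042, 0.0335 and 0.0426. Day 35 exceeded day 14 by 0.74 ± 0.23 (adjusted p = 0.00691). In the order of groups, from day 35 through days 28 and 42, CTRL, days 7 and 21 to day 14, no neighbouring pair differed (lowest adjusted p = 0.649), and likewise for *H2-Ob* (lowest 0.251). *H2-Oa* shares 321 exon bases with *BC051537* on the opposite strand, which had 1.16% as many counts.

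**Figure D2:**
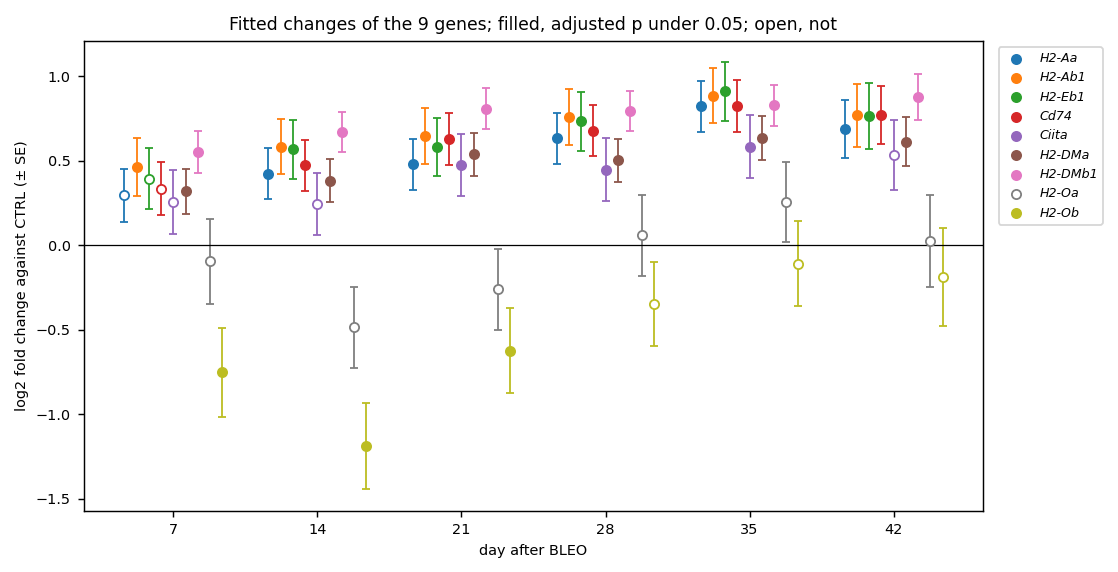
Fitted log2FC against CTRL (y axis, ± SE) of the 9 genes on each day (x axis); filled points had an adjusted p under 0.05 by edgeR's quasi-likelihood test and open points did not. *H2-Ob* lay lowest on each of the 6 days with its minimum of -1.19 on day 14, *H2-Oa* was open throughout, and the other 7 genes were above 0 on every day.

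Day 7 had 3 of 9 members upregulated, beside 24.8% of the 16221 genes tested. Day 14 had 6 (32.4% of all genes), day 21 had 7 (28.3%), day 28 had 7 (24.1%), day 35 had 7 (16.9%) and day 42 had 6 (13.7%). *H2-Ob* was the 1 member downregulated on day 7 (21.0% of all genes), day 14 (29.9%) and day 21 (25.8%). No member was downregulated on day 28 (19.2% of all genes), day 35 (13.1%) or day 42 (11.0%) by edgeR's quasi-likelihood test, with 0 at an unadjusted p under 0.05 and 0 by DESeq2. From day 7 through day 42 in order, the members had a median log2FC of 0.32, 0.42, 0.54, 0.63, 0.82 and 0.69, and that of all genes tested was between -0.002 and 0.018. The comparisons share the 10 CTRL mice.

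All BLEO-IPF mice lay above all CTRL mice in 5 members at day 21 (6.84% of all genes), in 3 at day 28 (2.10%), in 5 at day 35 (2.43%) and in 6 at day 42 (4.22%). On day 7 (7.39% of all genes) and day 14 (9.46%) this held for 0 members. *Cd74*, *H2-Aa* and *H2-DMb1* were among them on each of days 21, 28, 35 and 42.

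Among the 15 pairs of BLEO days, 4 held called members, and each such member was higher on the later day. From day 7 to day 35 there were 4 (*H2-Aa*, *H2-Ab1*, *H2-Eb1* and *Cd74*, with 10.4% of all genes higher), from day 14 to day 28 there was 1 (*H2-Ob*, 11.4%), from day 14 to day 35 there were 4 (*H2-Aa*, *Cd74*, *H2-Oa* and *H2-Ob*, 19.9%) and from day 14 to day 42 there was 1 (*H2-Ob*, 15.2%). With only the groups compared in the fit, day 35 against day 14 no longer passed for *H2-Aa* (0.40, adjusted p = 0.121) or *Cd74* (0.36, adjusted p = 0.17), and with no filter on low counts it was lost for *Cd74* (0.35, adjusted p = 0.0797). In the other 11 pairs, edgeR called 0 of 99 values, of which 13 had an unadjusted p under 0.05, and DESeq2 called 1. *Ciita*, *H2-DMa* and *H2-DMb1* passed in none of the 15 pairs, with lowest adjusted p of 0.106, 0.0598 and 0.0802.

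By the coefficient of variation of CPM, the 12 mice of day 14 differed more from each other than those of any other group in all 9 members. The coefficient of variation of *H2-Ab1* CPM was 46.3% on day 14, against 9.23% in CTRL and 16.2% on day 21. Mouse 8 was lowest of the 12 in all 9 members, with 148 CPM of *H2-Ab1*, 435 of *Cd74*, 6.97 of *Ciita* and 3.61 of *H2-Ob*. Mice 1 and 4 were among the 4 lowest in all 9 members as well, with 238 and 313.5 CPM of *H2-Ab1*, below every CTRL mouse. Mouse 2 was highest in 6 members, with 1117 CPM of *H2-Ab1*, and mouse 7 in the other 3. Total counts did not follow this, at 12996042 for mouse 8 and 12164189 for mouse 2.

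Marker genes of other cells also differed among these 12 mice. The summed CPM of 16 dendritic cell markers was 228 in mouse 8, 295 in mouse 1, 364 in mouse 4 and 557 in mouse 2. For 12 B cell markers it was 71.9 in mouse 8, 70.6 in mouse 1, 61.7 in mouse 4 and 237 in mouse 2. For 12 markers of monocyte-derived and interstitial macrophages it was 3220, 2250, 2470 and 2220 in the same order, and for 10 markers of alveolar type 2 cells 8530, 6860, 11900 and 9740. Mouse 8 was thus lowest in dendritic cell markers and highest in macrophage markers of the 12 mice. Their part in the spread of the class II genes was not tested.

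Since TMM scaling can shift a fold change, each gene was also set against *H2-Ab1* in the same library as a log2 ratio of counts (0.5 added), by a two-sided permutation test over mice with adjustment over 48 tests. *H2-Ab1* was itself upregulated against CTRL on all 6 days (log2FC 0.46 to 0.89), so a ratio can fall where the other gene does not. By the edgeR test against CTRL, *H2-Oa* was called on no day and *H2-Ob* on none from day 28 on. *H2-Ob* fell relative to *H2-Ab1* on all 6 days. Its mean log2 ratio was -3.20 ± 0.389 (SD) in CTRL, -5.12 ± 0.547 on day 14 and -4.16 ± 0.389 on day 35, a difference from CTRL of -1.93 on day 14 (adjusted p = 0.00012, all 12 mice below all CTRL mice) and -0.96 on day 35 (adjusted p = 0.000274, 9 of 12 mice). *H2-Oa* fell relative to *H2-Ab1* on all 6 days too, by -0.52 on day 7 (adjusted p = 0.00442), -1.15 on day 14 (adjusted p = 0.00012, all 12 mice below all CTRL mice) and -0.83 on day 42 (7 mice, exact permutation test, adjusted p = 0.0038). On day 42 the difference of *H2-Ob* was -1.01 (exact permutation test, adjusted p = 0.00309). The ratios were not repeated without the 3 libraries with *Rag1* counts, and CTRL mice 5 and 9 among them had the highest *H2-Ob* of CTRL.

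The other ratios were smaller. *H2-DMa* was lower relative to *H2-Ab1* on days 7, 28, 35 and 42, by -0.24 on day 35 (adjusted p = 0.00012, 11 of 12 mice below all CTRL mice) and -0.25 on day 28 (adjusted p = 0.0003, 10 of 12 mice). *Ciita* was lower on day 14 by -0.38 (adjusted p = 0.0397), on day 28 by -0.31 (adjusted p = 0.00536) and on day 35 by -0.29 (adjusted p = 0.00895). *H2-Aa* was lower on 4 days by -0.12 to -0.16, *H2-Eb1* on days 7 and 21 by -0.07 each and *Cd74* on day 7 by -0.12 (adjusted p = 0.00645). *H2-DMb1* was higher on day 21 by 0.17 (adjusted p = 0.024), the 1 call of 27 that was upward.

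The smaller ratios depended on the reference gene. With *Cd74* as the reference 25 of 48 tests passed. *H2-DMb1* then also passed upward on day 7 (0.23, adjusted p = 0.00642), day 14 (0.28, adjusted p = 0.0173), day 28 (0.12, adjusted p = 0.042) and day 42 (0.12, exact permutation test, adjusted p = 0.042), and *H2-Eb1* on day 35 (0.08, adjusted p = 0.0407). The calls of *H2-Aa* on days 7, 14 and 28, *H2-Eb1* on days 7 and 21, *Ciita* on day 14 and *H2-DMa* on day 7 were lost, and *H2-Eb1* on day 7 turned to 0.06 (adjusted p = 0.0746). *H2-Oa* and *H2-Ob* passed downward on all 6 days with either reference. Each reference had a log2FC above 0 against CTRL on every day.

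**Figure D3:**
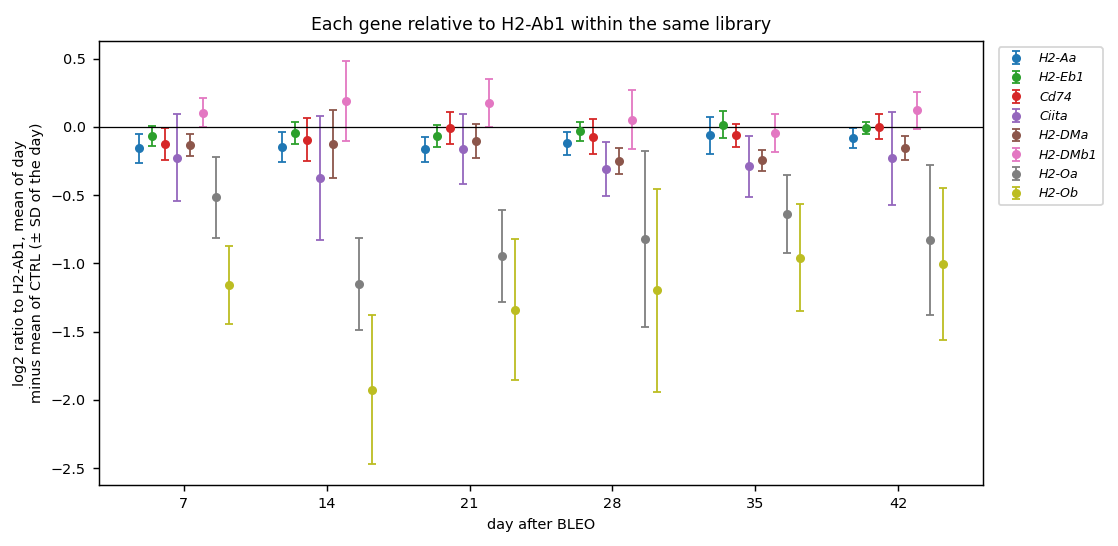
Mean log2 ratio of each gene to *H2-Ab1* on each day (x axis) minus that of CTRL (y axis); bars are the SD between mice of that day. *H2-Oa* and *H2-Ob* lay below 0 on all 6 days, down to -1.15 and -1.93 on day 14, while the other 6 genes stayed between -0.38 and 0.19.

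Within groups, mice that were high in one member were high in the others. After the group mean of log2 CPM was removed, all 36 pairs of members had a positive Pearson r over 75 mice, from 0.38 to 0.99 with a median of 0.80 (permutation of mice within groups, all 36 adjusted p under 0.05, 35 by Spearman's rho). Among *H2-Aa*, *H2-Ab1*, *H2-Eb1*, *Cd74*, *H2-DMa* and *H2-DMb1*, r was 0.87 to 0.99. *H2-Ab1* and *H2-Eb1* had r = 0.99 (rho = 0.97, adjusted p = 1.12e-05 by permutation, r = 0.98 without the 2 farthest mice). *Ciita* had r = 0.80 with *H2-Ab1* (rho = 0.72, adjusted p = 1.12e-05, 0.72 without the 2 farthest). *H2-Oa* and *H2-Ob* had r = 0.87 (rho = 0.82, adjusted p = 1.12e-05, 0.83 without the 2 farthest). The lowest pair was *H2-DMb1* with *H2-Ob*, at r = 0.38 (adjusted p = 0.00962) and rho = 0.14 (adjusted p = 0.249). The smallest p that 100000 permutations give is 1e-05.

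These correlations leaned on day 14. Without its 12 mice the median r over the 36 pairs was 0.64 and the range -0.10 to 0.97. *H2-Ab1* and *H2-Eb1* kept r = 0.97, *H2-Ab1* and *H2-DMa* 0.94 and *H2-Oa* and *H2-Ob* 0.80, while *H2-Ab1* with *H2-Ob* went from 0.64 to 0.31 and *H2-DMb1* with *H2-Ob* from 0.38 to -0.10.

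The same deviations were set against the mean log2 CPM of 5 marker lists in 45 tests, of which 21 passed by Pearson's r and 20 by Spearman's rho. *H2-Ob* followed the B cell markers, at r = 0.95 (rho = 0.96, adjusted p = 3.75e-05 by permutation, r = 0.95 without the 2 farthest mice and 0.95 without day 14), and within each of the 7 groups r lay between 0.88 and 0.98. *H2-Oa* had r = 0.80 with the same list (rho = 0.76, adjusted p = 3.75e-05, 0.76 without the 2 farthest and 0.73 without day 14), and within groups from 0.28 on day 35 and 0.46 on day 7 to 0.92 on day 14. The classical chains and *Cd74* followed the dendritic cell markers, at r = 0.87 for *H2-Ab1* (rho = 0.79, adjusted p = 3.75e-05, 0.80 without the 2 farthest and 0.75 without day 14), 0.88 for *H2-Eb1*, 0.85 for *H2-Aa* and 0.85 for *Cd74*. Within groups the r of *H2-Ab1* with that list was lowest in CTRL (0.38) and on day 42 (0.53) and highest on day 14 (0.96). *Ciita* had r = 0.86 with the dendritic cell markers (rho = 0.80, adjusted p = 3.75e-05, 0.81 without the 2 farthest). The other members passed with that list too (adjusted p = 3.75e-05 each). Their r was 0.83 for *H2-DMa*, 0.76 for *H2-DMb1*, 0.71 for *H2-Oa* and 0.63 for *H2-Ob*. Without day 14 it was 0.70, 0.55, 0.51 and 0.32 in the same order. With the B cell markers the r of *H2-Ab1* was 0.48 (rho = 0.38, adjusted p = 0.00102), and 0.17 without day 14. By Pearson's r, *H2-DMb1* was the only member that did not pass with the B cell markers (0.21, adjusted p = 0.257 by permutation).

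No member passed with the alveolar macrophage markers (0 of 9 by r or rho, r from -0.07 to 0.11, lowest unadjusted p of r 0.383), and without day 14 the r of *Ciita* with them was -0.39. Of the 10 markers of that list, 4 were upregulated and 4 downregulated on day 14 against CTRL, so their mean may not follow 1 cell type. With the markers of monocyte-derived and interstitial macrophages, *H2-Ob* had r = -0.57 (rho = -0.56, adjusted p = 3.75e-05, -0.52 without the 2 farthest) and *H2-Oa* -0.33 (rho = -0.30, adjusted p = 0.0373, -0.29 without the 2 farthest). *H2-DMb1* passed with that list by rank (rho = 0.32, adjusted p = 0.0215) and not by Pearson's r (0.22, adjusted p = 0.151). Without day 14, the r with that list went from 0.05 to 0.33 for *H2-Ab1*, from 0.01 to 0.37 for *Cd74* and from 0.22 to 0.50 for *H2-DMb1*, and was -0.58 for *H2-Ob*. With the alveolar type 2 cell markers, *H2-Ob* had r = 0.54 (rho = 0.42, adjusted p = 0.00103, 0.44 without the 2 farthest) and *H2-Oa* 0.37 (adjusted p = 0.0355, 0.24 without the 2 farthest), which did not pass by rank (rho = 0.27, adjusted p = 0.0793). The lists vary together within groups, so a correlation with one list is not separate from that with another.

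**Figure D4:**
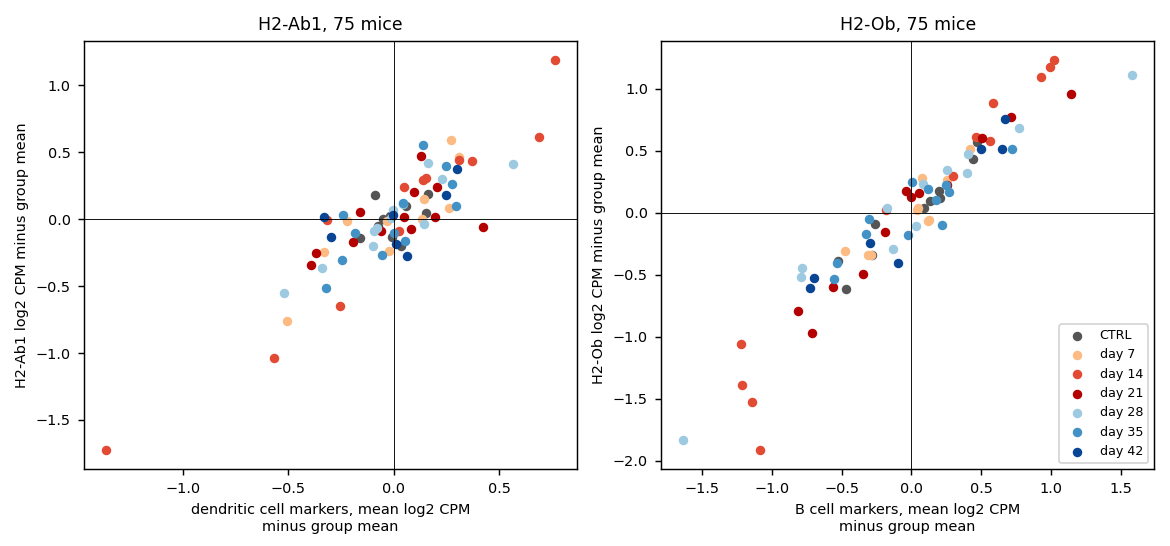
Deviation of log2 CPM from the group mean in each of 75 mice, colored by group, for *H2-Ab1* (y axis) against 16 dendritic cell markers (x axis, mean log2 CPM) and for *H2-Ob* against 12 B cell markers. The mice lay along a rising line in both panels, with r of 0.87 and 0.95, and the 2 lowest points of the left panel were mice of day 14.

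Between groups, the B cell markers moved with *H2-Ob*. For this list and those below, counts stand beside 13.7% to 32.4% of all genes upregulated and 11.0% to 29.9% downregulated per day. Of 12 markers, day 7 had 9 downregulated, day 14 had 11 and day 21 had 10. Day 28 had 0 by edgeR (2 at an unadjusted p under 0.05, 0 by DESeq2), day 35 had 1 and day 42 had 0 (0 and 0). For days 7 to 42 in order, the list's median log2FC was -0.74, -1.25, -0.74, -0.41, -0.27 and -0.21. The summed CPM of the list ran from 215 to 424 in CTRL, from 61.7 to 239 on day 14 and from 178 to 416 on day 35, and no marker was at 0 in any group. *Ms4a1* (CD20) had a log2FC of -1.40 on day 14 (adjusted p = 9.92e-05) and *Cd79b*, a chain of the B cell receptor complex, -1.32 (adjusted p = 1.22e-05). Without the 3 libraries with *Rag1* counts, day 7 had 1 marker downregulated, day 14 had 11 and day 21 had 5. The part of B cells in the change of *H2-Ob* was not tested.

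Most dendritic cell markers were upregulated on each day, in another order of days than the classical chains. Of 16 markers, 12, 10, 10, 11, 12 and 9 were upregulated on the 6 days in order, with a median log2FC between 0.65 on day 14 and 0.95 on day 7, and 2 were downregulated on day 14 and 1 each on days 21 and 35. On day 7, with the highest median of this list, *H2-Aa*, *H2-Eb1* and *Cd74* had log2FC of 0.30, 0.39 and 0.33 and did not pass in the shared fit. With only CTRL and day 7 in the edgeR fit, each of them passed (adjusted p = 0.0201, 0.00431 and 0.0141). The summed CPM of the 16 dendritic cell markers ran from 220.0 to 269 in CTRL, from 228 to 557 on day 14 and from 307 to 485 on day 35, and no marker was at 0. *Wdfy4*, a gene of cross-presentation and the most abundant of the list, had a log2FC of 0.62 on day 35 (adjusted p = 0.000144). *Fscn1*, an actin bundling protein listed here for mature dendritic cells, reached 2.09 on day 14 (adjusted p = 1.61e-14). Which cells of the lobe held the *Fscn1* RNA was not tested. *Zbtb46*, a dendritic cell transcription factor that endothelial cells also express, fell on day 14 by 0.29 (adjusted p = 0.00492). The part of dendritic cells in the rise of the class II genes was not tested.

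Macrophages and alveolar type 2 cells, which can also carry class II, were followed by their markers as well. Of 12 markers of monocyte-derived and interstitial macrophages, day 7 had 10 upregulated, day 14 had 11, days 21, 28 and 35 had 10 each and day 42 had 9, and their median log2FC was between 0.87 on day 42 and 1.69 on day 14. *C1qb*, a complement subunit, had a log2FC of 3.33 on day 14 (adjusted p = 5.8e-17), while *Lyve1*, a hyaluronan receptor, fell on day 21 by 1.09 (adjusted p = 0.00012). Of 10 alveolar macrophage markers, 2 to 6 were upregulated and 2 to 4 downregulated. Of 10 alveolar type 2 markers, 7 were downregulated on day 14 (*Sftpc* -0.88, adjusted p = 2.75e-05) and 0 to 1 on the other days, while 0 to 3 were upregulated. Of 6 leukocyte markers, 4 were upregulated on each day, among them *Laptm5* with 1.04 on day 14 (adjusted p = 2.51e-11).

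The steps before and after loading were described with lists of related genes. Of 10 genes of antigen processing and invariant chain cleavage, day 7 had 7 upregulated, days 14, 21 and 28 had 8, day 35 had 6 and day 42 had 7. The list's median log2FC was highest at day 14 (1.52) and lowest at day 42 (0.63). *Ctss*, cathepsin S, the protease that makes the last cut in the invariant chain in many antigen presenting cells, went from 175 ± 13.2 CPM in CTRL to a log2FC of 2.80 on day 14 (adjusted p = 1.57e-17) and 1.85 on day 42 (adjusted p = 3.35e-09). *Ctsb* (1.56 on day 14, adjusted p = 7.6e-15), *Ctsd* (2.02, adjusted p = 6.29e-14) and *Ctsh* (1.57, adjusted p = 1.32e-14), further lysosomal cathepsins, were upregulated on all 6 days. These 4 cathepsins had their highest log2FC on day 14 or 21, and the class II genes other than *H2-Ob* had their highest mean CPM on day 35 or 42. No neighbouring BLEO days in the order of group means differed for any class II gene, and the timing of the lists was not tested.

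Of the genes that act on class II promoters and in the interferon gamma axis, 18 of 19 were tested, and 3 to 5 were upregulated and 1 to 4 downregulated on each day, with a median log2FC between -0.04 and 0.0002. Over all genes tested, 13.7% to 32.4% were upregulated and 11.0% to 29.9% downregulated per day, so the upregulated counts were near that share. *Ifng*, interferon gamma itself, did not pass the filter on low counts. *Irf1*, a transcription factor induced by interferon gamma, fell on day 14 by 0.40 (adjusted p = 3.04e-05) and was downregulated on days 7 to 35, whereas *Jak2*, a kinase of the interferon gamma receptor, rose on days 7, 14 and 21 (0.37 on day 14, adjusted p = 1.56e-05). *Ifngr1*, a chain of that receptor, was called on no day (log2FC from -0.07 to 0.02), whereas *Ifngr2*, the other chain, named here after its values were seen, was upregulated on all 6 days (0.68 on day 14, adjusted p = 9.28e-15).

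Of 16 genes of class I antigen presentation, day 7 had 6 upregulated, day 14 had 9, day 21 had 10, days 28 and 35 had 7 and day 42 had 8, and 0 were downregulated on any day by edgeR (1 on day 7 at an unadjusted p under 0.05 and by DESeq2). The share of all genes upregulated was 24.8%, 32.4%, 28.3%, 24.1%, 16.9% and 13.7% from day 7 to day 42 in order. At days 14 and 35 the list's median log2FC was 0.21 and 0.16, beside 0.42 and 0.82 for the 9 class II genes, and the difference between the lists was not tested. The class I heavy chains *H2-K1* and *H2-D1* had a log2FC of 0.29 (adjusted p = 0.0159) and 0.22 (adjusted p = 0.0176) on day 35, and *B2m*, their light chain, 0.24 (adjusted p = 0.0405).

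Of 7 tested costimulation and checkpoint ligands, 4 to 6 were upregulated on each day. *Cd86*, a ligand of CD28, was upregulated on all 6 days (1.56 on day 14, adjusted p = 2.63e-14), *Cd274* (PD-L1) from day 14 on (0.34, adjusted p = 0.00971), and *Icosl* was downregulated on day 14 (-0.35, adjusted p = 0.00573). Of 10 genes of the CD4 T cell side, 1 to 3 were upregulated per day and 0 downregulated by edgeR (0 at an unadjusted p under 0.05, 0 by DESeq2). That stands beside 13.7% to 32.4% of all genes upregulated per day. *Cd4* had a log2FC of 0.24 on day 14 (adjusted p = 0.286) and 0.41 on day 35 (adjusted p = 0.108). Of 6 genes of class II turnover, 2 or 3 were upregulated on each day, among them *Cd63*, a tetraspanin of late endosomes (1.42 on day 14, adjusted p = 1.49e-12). *March8*, a ubiquitin ligase that can act on class II, fell on day 14 by 0.14 (adjusted p = 0.00151).

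Neighbours in the class II region were low. *H2-Eb2* was 5.58 ± 1.85 CPM in CTRL and, like *H2-DMb2*, was called on no day by edgeR or DESeq2 (0 at an unadjusted p under 0.05), and *H2-Ea-ps*, the defunct I-E alpha gene of this strain, had at most 1 count in any mouse. The other reference lists each moved in part. Of 7 endothelial markers, 2 to 5 were downregulated, of 7 lung tissue markers 1 to 6, and of 4 tested thymus markers 1 to 4. The thymus counts rested on the 3 libraries with *Rag1* counts. Without them, 2 thymus markers were downregulated on day 14 and 0 on each other day. Of 4 tested plasma cell markers, 2 to 3 were upregulated and 0 to 1 downregulated. Of 3 tested lymphoid tissue markers 1 was upregulated on days 7 to 35, *Cxcl13*, a B cell attracting chemokine (2.95 on day 14, adjusted p = 1.75e-08).

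**Figure D5:**
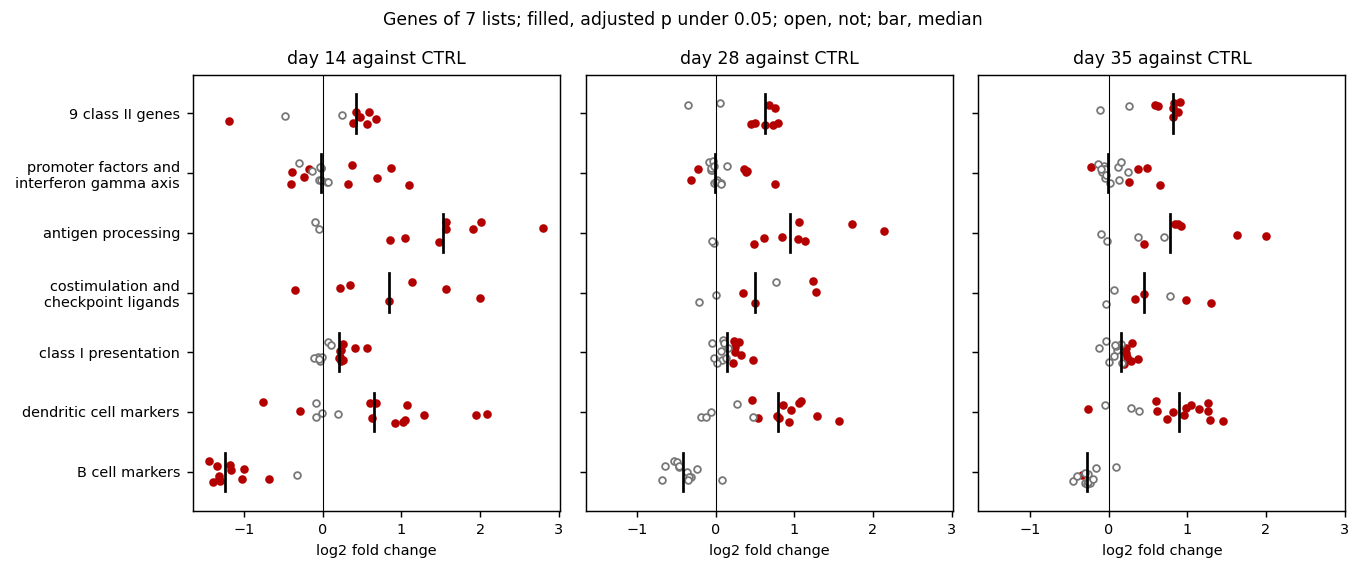
Log2FC against CTRL (x axis) of the genes of 7 lists (rows) on days 14, 28 and 35; filled points had an adjusted p under 0.05 by edgeR, open points did not, and the bar is the median. On day 14 the antigen processing genes had a median of 1.52 and the B cell markers -1.25, and on day 35 the 9 class II genes had 0.82 and the class I genes 0.16.

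Among 13804 other genes with a mean log2 CPM above 1, the deviations within groups that were most like the mean of *H2-Aa*, *H2-Ab1*, *H2-Eb1* and *Cd74* over 75 mice included those of *Cd83* (r = 0.87), *Sash3* (0.85), *Plbd1* (0.83), *Slamf8* (0.83), *Mgl2* (0.82), *Dnase1l3* (0.81), *Pglyrp2* (0.79) and *Xcr1* (0.79), all among the first 10 by r. The mice share library and depth across these genes, and the values are a description. *Dnase1l3*, a secreted nuclease, had a log2FC of 1.88 on day 35 (adjusted p = 6.3e-06) and *Xcr1*, a chemokine receptor of dendritic cells, 1.46 (adjusted p = 6.54e-06), whereas *Sash3* had 0.23 (adjusted p = 0.131). Over the 7 group means, the genes most like the same mean were *A630001G21Rik* (r = 0.993), *Lpar6* (0.99), *Large2* (0.987), *Nr5a2* (0.982) and *Fbxo44* (0.971).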

How the data were processed

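Lung RNA of 75 mice was analysed from raw counts per gene. The authors deposited these counts without normalization, after alignment of single-end reads from stranded libraries to GRCm38 with Ensembl release 96 by STAR 2.7.0f (build and version per the submitters' processing notes). The counting program and its treatment of strand and of multiply mapped reads are not given in the sources used here. All 75 columns were matched to a mouse by the sample labels, with 0 columns left over, and all 55536 gene identifiers were found in the GENCODE annotation of the same build and release, from which exon lengths and coordinates were taken. Total counts per library were 9240291 to 14665247. The labels used here name no batch. No 2 libraries of a group agreed within sampling noise (375 pairs, lowest chi-square per degree of freedom 4.11).

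Groups were compared by edgeR 4.0.16 under R 4.3.3 (quasi-likelihood F test, TMM factors, filterByExpr, 1 mean per group, all 75 mice in 1 fit). The Benjamini-Hochberg adjustment ran over 16221 genes in each of the 21 comparisons, at a threshold of 0.05, and ± is the SE of the fitted log2FC or the SD between mice. Log2 CPM used a prior count of 2, and ratios and correlations were tested by permutation (100000 resamples, or all arrangements for day 42) in Python 3.11.15 with numpy 2.4.6. RPKM divide CPM by the union of annotated exons. The edgeR fit was tested on simulated counts with known changes. These had 1 spread per gene for all groups, whereas the spread of the mice differed between groups, so that difference was not covered.

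The 9 members, the 18 other gene lists and the tests were chosen with earlier results of these data known. All members were named, and per list at most the 4 genes with the highest mean CPM; genes of like pattern were ranked by r as stated, and *Ifng*, *H2-Eb2*, *H2-Ea-ps* and *Rag1* were added by role. Some genes that these rules select are not reported here. Alternatives were DESeq2 1.42.0, upper quartile factors or plain library size in place of TMM, a fit without the filter or with a minimum of 10 counts in each mouse, a fit limited to the groups compared, a block for the replicate number, ratios to *Cd74* or with 2 added to counts, and correlations without the 2 farthest mice. Chosen after seeing the data were leaving out each mouse in turn, leaving out the 3 libraries with over 100 *Rag1* counts, and leaving out day 14 from the correlations.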

Additional observations from a re-analysis of the deposited data

Results flagged for a closer look

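For 6 of the 9 genes, a pair of BLEO days differed by the edgeR test of the days themselves. Day 35 exceeded day 7 by a log2 difference of 0.53 in *H2-Aa*, 0.42 in *H2-Ab1*, 0.52 in *H2-Eb1* and 0.49 in *Cd74*. Day 35 exceeded day 14 by 0.74 in *H2-Oa* and by 1.08 in *H2-Ob*. No single mouse stood apart by Dixon's test in the 27 combinations of a gene with CTRL, day 7 or day 42, where chance alone would mark about 1 in 20. The groups of 12 mice were not tested in this way. They include day 14, where mouse 8 was lowest of its group in all 9 members.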

How the results depend on the processing

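Of the log2FC values of the 9 genes against CTRL under 8 alternative fits, 415 kept their side of the threshold, 11 lost the call and 6 gained one. Of these, 3 values that passed under no fit changed sign, *H2-Oa* on day 7 (0.02) and *H2-Ob* on day 35 (0.04) without the 3 libraries with *Rag1* counts and *H2-Oa* on day 28 (-0.02) with the replicate block. With only the groups compared in the fit, 6 members were upregulated on day 7 rather than 3, day 14 lost the calls of *Cd74* (adjusted p = 0.0567) and *H2-Aa* (adjusted p = 0.0876), 16 rather than 10 values differed between BLEO days while day 35 against day 14 was lost for *H2-Aa* and *Cd74*, and 2870 rather than 1786 genes were downregulated on day 42. With no filter on low counts, 1165 genes were downregulated on day 42 and 0 members on day 21 (*H2-Ob*, adjusted p = 0.0586). Without the 3 libraries with *Rag1* counts, 0 members were downregulated on days 7 and 21 and 2 rather than 3 upregulated on day 7. Leaving out each mouse gave 1 to 5 upregulated members on day 7, 5 to 7 on day 14, 6 to 7 on days 21, 28 and 42 and 7 on day 35, 1 downregulated on day 7, 1 to 2 on day 14, 0 to 1 on day 21 and 0 on days 28, 35 and 42, and 8 to 16 values between BLEO days (16 without mouse 2 of day 14). On day 7, 1 member remained upregulated without mouse 4 of that day.

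With the replicate number as a block, 2 members rather than 1 were downregulated on day 14 (*H2-Oa* gained, adjusted p = 0.0471), *Ciita* lost day 28 (adjusted p = 0.0725) and *H2-Eb1* gained day 35 against day 14 (adjusted p = 0.0483). The labels do not say that a number pairs mice, and over 204 pairs of mice with the same number the median correlation of deviations was 0.00574, against 0.00183 for other numbers. Ratios set against *Cd74* gave 25 rather than 27 calls, with 5 gained, all upward, 6 lost and *H2-Eb1* on day 7 turned to 0.057. Without day 14 the median r was 0.64 rather than 0.80 between members and 0.15 rather than 0.26 with marker lists, and that of *H2-DMb1* with *H2-Ob* turned to -0.10. The cause of these shifts was not tested. At 11 to 125 counts per mouse, depth limits *H2-Oa* most.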
